A study of Mus musculus with 123 samples.

Results

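Genes known as brakes on the cell cycle were followed in single cells of the developing mouse heart, 10 in all: 4 inhibitors of cyclin-dependent kinases (Cdkn1a, Cdkn1b, Cdkn2c and Cdkn2d), the 3 pocket proteins (Rb1, Rbl1 and Rbl2), Trp53, and the homeobox genes Meis1 and Meis2. They are picked by gene name, with no measured value in the rule, and are 10 of the 23337 gene symbols in the count table. Earlier results of these data were known when they were chosen. The cells came from hearts of αMHC-GFP mice, in which the promoter of α-myosin heavy chain, a sarcomere protein of cardiomyocytes, drives a fluorescent reporter. They were sorted for the reporter at embryonic days E9.5 and E12.5 and at postnatal day P1, so cells that had not yet switched on the promoter are not covered. Hearts were dissociated with collagenase at both embryonic stages and with Liberase at P1, and this difference cannot be told apart from age at P1. All 3 groups carry the same transgene and no group was treated. Of the 123 deposited cells, the 112 with at least 2000 genes detected were kept, of which E9.5 gave 42, E12.5 gave 29 and P1 gave 41.

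Cyclin-dependent kinases drive cells through the division cycle, and 2 families of small proteins block them: the CIP/KIP family, which includes p21 (Cdkn1a) and p27 (Cdkn1b), and the INK4 family, which includes p18 (Cdkn2c) and p19 (Cdkn2d) and acts on the D-cyclin kinases Cdk4 and Cdk6. These kinases phosphorylate the pocket proteins pRb, p107 (Rbl1) and p130 (Rbl2), which otherwise bind E2F transcription factors and keep genes for DNA replication silent. The tumour suppressor p53 (Trp53) activates Cdkn1a after DNA damage, and Meis1 is known in the mouse heart as a regulator of the postnatal exit of cardiomyocytes from the cycle.

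Each time point was treated as 1 sample of pooled cells, because the labels name no animal, litter or chip. No p-value was therefore computed across cells. The cell titles begin with different prefixes, and these naming sets served to show the spread within a time point: set C with 14 cells and set N530 with 28 at E9.5, set C with 20, set N523 with 8 and set E12-5b with 1 at E12.5, and set C alone at P1. What a prefix stands for is not given in the labels. Sequencing depth differed between them. The median total of E9.5 cells was 415428 counts for set C and 3151946 for set N530, that of E12.5 cells 389394 for set C and 4895288 for set N523, and that of P1 cells 149078. Levels are given as CPM, the counts of a gene per 1000000 counts of the cell, which makes them relative to all other transcripts of that cell. Shares of cells are also given after all cells were thinned to 100000 counts; 3 shallower P1 cells had to be dropped there.

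The label of the cells was checked against 8 cardiomyocyte genes. At least 4 of them reached 100 CPM in 39 of the 42 cells from E9.5, in 29 of the 29 from E12.5 and in 40 of the 41 from P1. The 3 E9.5 cells that fell short all belonged to set C, and without such cells every call of a member was kept except that of Meis1 from E9.5 to E12.5. Summed markers of other cell types were counted at 100 CPM or more in the 42, 29 and 41 cells in order of age. Endothelial genes reached this in 5, 0 and 1 cells, fibroblast genes in 6, 3 and 1, epicardial genes in 7, 8 and 3, and macrophage genes in 5, 1 and 1. Smooth muscle genes reached it in 29, 22 and 3 cells, and calponin (Cnn1) held the largest part of that sum at each time point. Among the epicardial genes Tbx18 had the highest mean at E12.5 (80.5 CPM, found in 14 of 29 cells).

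A member was called higher or lower between 2 time points when its mean CPM over cells differed by at least 2-fold, the higher mean was at least 5 CPM with the gene found in at least 10% of those cells, and every combination of naming sets with 6 or more cells moved in the same direction. At each comparison 7 of the 10 members met the conditions on level, and Cdkn2c, Rb1 and Rbl2 did not. From E9.5 to E12.5 3 members were called lower (Cdkn1a, Meis1 and Meis2) and 0 higher, where 18.6% of the 9421 genes with sufficient level were called lower and 9.31% higher. From E12.5 to P1 Cdkn1b, Rbl1 and Trp53 were called lower, with 25.3% of 8595 genes lower, and Cdkn1a and Meis2 higher, with 15.6% higher. From E9.5 to P1 4 members were called lower (Cdkn2d, Rbl1, Trp53 and Meis1), against 38.1% of 9064 genes, and Cdkn1a higher, against 15.8%. Each time point enters 2 of the 3 comparisons, so these counts are not independent. The median log2 ratio of all 10 members, the sparse ones included, was 0.59 between the embryonic stages, -0.39 from E12.5 to P1 and -0.67 from E9.5 to P1. Among the 7 members with sufficient level the middle ratio was -0.12 (Rbl1), -1.38 (Cdkn1b) and -1.35 (Meis1). The medians of all genes with sufficient level were -0.16, -0.48 and -0.75. Under TMM scaling, which shifts all log2 ratios by 0.43, -0.26 and 0.17 in these comparisons, 12.8% of genes were lower and 15.6% higher from E9.5 to E12.5, and 30.1% lower and 11.7% higher from E12.5 to P1.

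**Figure D1:**
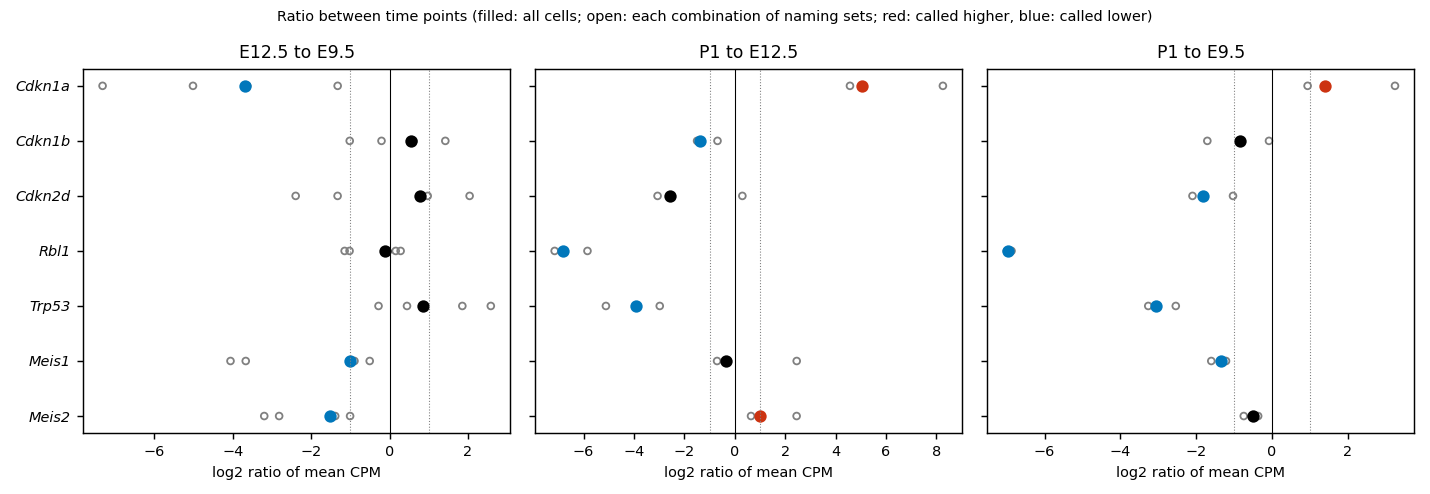
Log2 ratio of mean CPM (x axis) for the 7 members with sufficient level (y axis) in the 3 comparisons. Filled points use all kept cells, open points each combination of naming sets, and dotted lines mark 2-fold. Rbl1, at 1 count in the kept P1 cells, and Trp53 lie far to the left in both comparisons with P1, while Cdkn1a lies to the right in both of them.

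Cdkn1a was the only one of the 4 inhibitors with a higher mean at P1 than at both embryonic stages. Its product p21 blocks cyclin-dependent kinases and is the best known target of p53. At E9.5 it was found in 5 of 42 cells (11.9%, exact 95% interval 3.98 to 25.6), from 11.7 CPM up to 502 CPM, at E12.5 in 4 of 29 cells (13.8%, 3.89 to 31.7), from 1.02 to 15.2 CPM, and at P1 in 10 of 41 cells (24.4%, 12.4 to 40.3), from 74.7 to 246 CPM. The median cell was at 0 at every time point. Every P1 cell with Cdkn1a stood above all E12.5 cells, and 1 E9.5 cell stood above all P1 cells. After thinning it was found in 5 of 42, 2 of 29 and 10 of 38 cells. The P1 libraries were the shallowest of the 3 time points. Intervals on shares treat the cells as independent draws from the 1 sample of a time point, and intervals on pooled counts cover counting error only, since the reads carry no molecular identifiers and are not independent molecules.

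The mean level of Cdkn1a was 14.98 CPM in E9.5 cells, 1.17 in E12.5 cells and 39.2 in P1 cells. From E12.5 to P1 it was 33.4-fold higher (log2 ratio 5.06, 4.57 against set C and 8.26 against set N523). This call was kept under 13 of 14 alternative settings and lost only on the median over cells, which is 0. The E9.5 mean rested on cell 16 of set N530, whose 1930 counts made up 79.8% of the summed CPM. Without that cell the E9.5 mean was 3.10 CPM. The call from E9.5 to E12.5 (12.8-fold lower) was lost when the cell with the highest CPM was left out of each time point (log2 ratio -2.21), in set C alone (-1.33) and after thinning, where the ratio was no smaller (-4.66 in place of -3.68). From E9.5 to P1 the level was 2.61-fold higher (log2 ratio 1.39, and 3.45 with the cell of the highest CPM left out of each time point), and the call was lost under 4 of 14 alternatives, pooled counts and set N530 alone among them.

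Cdkn1a lies on chromosome 17 of GRCm38 (29090976 to 29100727, plus strand), and RefSeq gives it 2 start sites. The upstream promoter is shown because it carries the only p53 core among the promoters of the members. It spans chr17:29090729-29091028 on the plus strand, from 250 bases before to 50 bases after the start site, and capitals mark the core, CATG and CATG with any 6 bases between them, which begins 48 bases before the start site.
Cdkn1a upstream promoter: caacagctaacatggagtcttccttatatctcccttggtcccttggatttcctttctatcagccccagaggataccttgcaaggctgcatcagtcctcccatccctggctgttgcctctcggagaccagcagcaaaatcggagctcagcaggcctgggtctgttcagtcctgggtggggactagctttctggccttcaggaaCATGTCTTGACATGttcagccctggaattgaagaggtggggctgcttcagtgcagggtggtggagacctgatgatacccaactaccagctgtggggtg
Of the 32851 mouse promoters in the RefSeq table (GRCm38.p6), 234 (0.712%) held this core on either strand, which reads the same on both. The Cdkn1a promoter at the downstream start site and those of the other members held no match.

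Cdkn1b (chromosome 6, 134920401 to 134925513, plus strand) was the most widely found member at each time point, and its mean over all cells was highest at E12.5. Its product p27 binds cyclin E and cyclin A kinases and is known to build up in cells that leave the cycle. It was found in 39 of the 42 cells from E9.5 (92.9%, exact 95% interval 80.5 to 98.5), 29 of the 29 from E12.5 (100%, 88.1 to 100) and 36 of the 41 from P1 (87.8%, 73.8 to 95.9), and after thinning in 35 of 42, 28 of 29 and 31 of 38. CPM ran from 0 through a median of 52.4 to 606 at E9.5, from 0.645 through 117 to 380 at E12.5, and from 0 through 34.9 to 203 at P1. The ranges of all 3 time points overlapped over most of their length.

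The mean of Cdkn1b was 96.4 CPM in E9.5 cells, 140 in E12.5 cells and 53.8 in P1 cells. P1 was 2.60-fold lower than E12.5 (log2 ratio -1.38, -1.50 against set C and -0.69 against set N523), and this call was lost with pooled counts, where the ratio was 1.55-fold, and with set N523 alone. The naming sets also differed. At E9.5 set C had a mean of 175 CPM with a lowest cell of 15.8, and set N530 a mean of 56.8 with 3 cells at 0. At E12.5 set C had a mean of 152 and set N523 one of 86.7. Within set C the mean was thus at 175 and 152 CPM at the embryonic stages, and the log2 ratio of E12.5 to E9.5 ran from -1.02 to 1.42 over the set combinations, so no direction was called between the embryonic stages. Depth moved with the sets, and its part in the difference was not tested.

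The INK4 inhibitors differed widely in how often they were seen. Cdkn2c (chromosome 4, 109660876 to 109667189, minus strand), which encodes p18, was found in 0 of the 42 cells from E9.5, which allows a share of up to 7.14% by the limit of 3 counted cells and 8.41% by the exact 95% interval, in 1 of 29 cells at E12.5 (124 CPM, 47 counts) and in 3 of the 41 from P1 (7.87, 61.6 and 61.9 CPM). These values are too sparse for a comparison. With a minimum of 3000 genes, where the same count of 3 P1 cells is 3 of 18, Cdkn2c was called higher at P1 than at E9.5, where it had 0 counts.

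Cdkn2d (chromosome 9, 21288410 to 21291407, minus strand), which encodes p19, was found in 20 of the 42 cells from E9.5 (47.6%, 32.004 to 63.6), 17 of the 29 from E12.5 (58.6%, 38.9 to 76.5) and 11 of the 41 from P1 (26.8%, 14.2 to 42.9), and after thinning in 18 of 42, 15 of 29 and 10 of 38. The thinned E9.5 share, 42.9%, lay above the 26.2% to 40.5% of 20 other draws. CPM ran from 0 through a median of 0 to 792 at E9.5, from 0 through 12.2 to 602 at E12.5, and from 0 through 0 to 152 at P1. The highest P1 cell stood well below the highest embryonic cells, while all 3 groups shared the range below it. The mean was 63.4 CPM in E9.5 cells, 108 in E12.5 cells and 18.0 in P1 cells. P1 was 3.53-fold lower than E9.5 (log2 ratio -1.82, -1.03 against set C and -2.10 against set N530), a call lost only when cells with 1000 genes were admitted (log2 ratio -0.97), at 4-fold and on the median over cells. Against E12.5 no call was made, because the sets disagreed: set C had a mean of 150.5 CPM, above the P1 mean, and set N523 one of 14.6 CPM, below it. In set N523 4 of 8 cells were at 0 and the others were at 0.259, 12.2, 24.7 and 79.6 CPM.

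**Figure D2:**
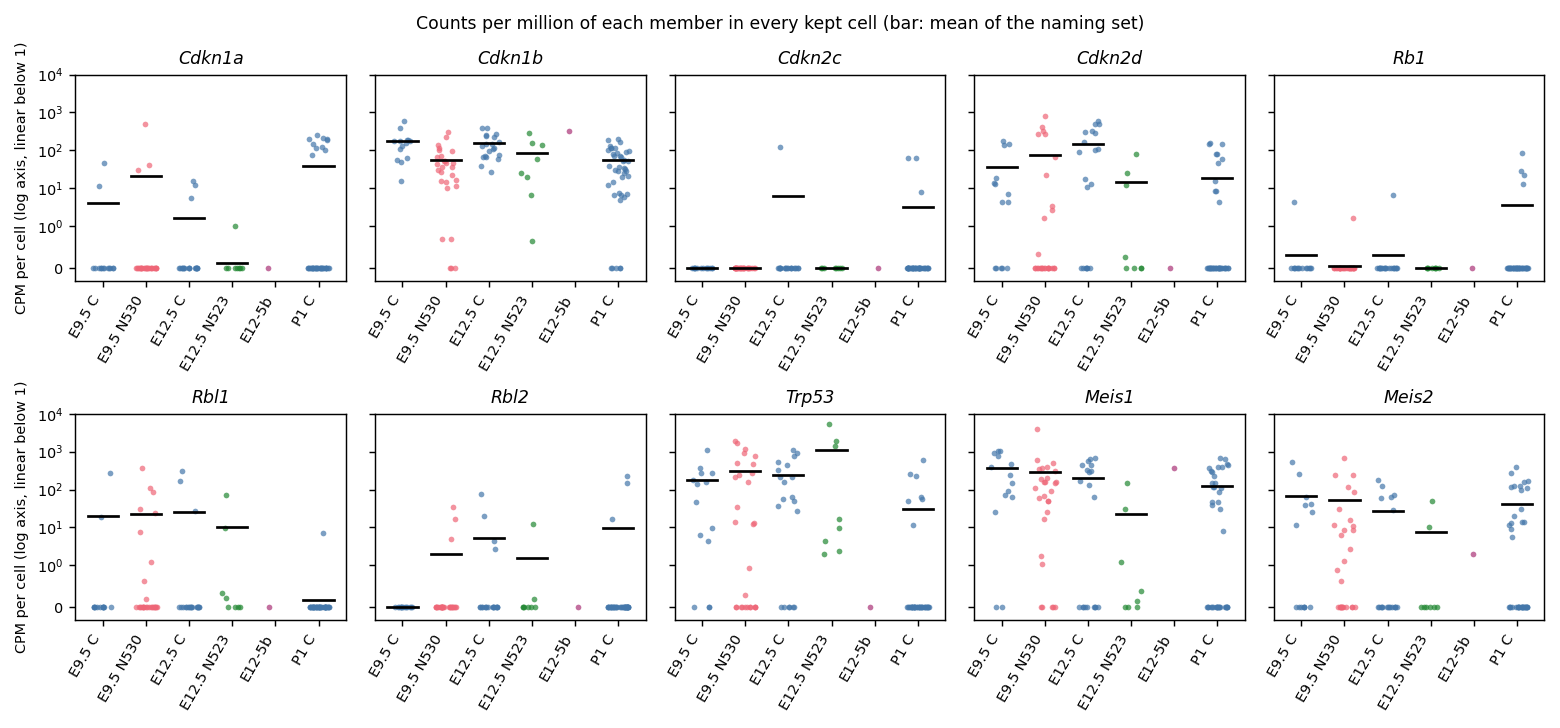
CPM of each member (y axis, log scale, linear below 1) in every kept cell, by time point and naming set (x axis), with the mean of each set as a bar. Cdkn1b is above 0 in nearly all cells, Cdkn1a is at 0 in most cells of every set, and Rbl1 and Trp53 are at 0 in most P1 cells.

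Among the pocket proteins Rbl1 was seen in a minority of embryonic cells and came down to 1 count at P1, while Rb1 and Rbl2 were sparse throughout. Rbl1 (chromosome 2, 157145893 to 157204534, minus strand) encodes p107, the pocket protein known from dividing cells. It was found in 11 of the 42 cells from E9.5 (26.2%, exact 95% interval 13.9 to 42.04), 7 of the 29 from E12.5 (24.1%, 10.3 to 43.5) and 1 of the 41 from P1 (2.44%, 0.0617 to 12.9), and after thinning in 8 of 42, 5 of 29 and 0 of 38. Its highest cell was at 363 CPM in E9.5 cells, 307 in E12.5 cells and 7.20 in P1 cells. Of the 18 embryonic cells with Rbl1, 5 were at 100 CPM or more and 5 below 2 CPM.

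The mean of Rbl1 was 21.8 CPM in E9.5 cells, 20.0 in E12.5 cells and 0.176 in P1 cells. Both embryonic means rested on few cells, the highest giving 39.6% of the sum at E9.5 and 52.9% at E12.5. The P1 level came from 1 count in 1 cell. In pooled counts the level at P1 was 80.4-fold lower than at E12.5, with a counting interval of 14.4 to 3182, and 124-fold lower than at E9.5, with an interval of 22.2 to 4884. These sizes rest on the minimum of 2000 genes. The 11 P1 cells below it held 12 counts of Rbl1 in 2 cells, and with cells of 1000 genes or more admitted the log2 ratio of mean CPM was -1.10 against E12.5 and -1.22 against E9.5, in place of -6.83 and -6.96. Rbl1 was lower at P1 in every combination of naming sets, and both calls were kept under 13 of 14 alternatives, the exception being the median over cells, which was 0 at all 3 time points. Between the embryonic stages the log2 ratio was -0.12, ran from -1.15 to 0.28 over the set combinations, and was 0.31 under TMM scaling.

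The promoter of Rbl1, chr2:157204485-157204784 on the minus strand (GRCm38.p6), is shown because it alone among the promoters of the members held an E2F motif. The letters searched were TTTCCCGC, TTTCGCGC, TTTGCCGC and TTTGGCGC on both strands, which do not overlap with the p53 core, and capitals mark the match, which begins 18 bases before the start site.
Rbl1 promoter: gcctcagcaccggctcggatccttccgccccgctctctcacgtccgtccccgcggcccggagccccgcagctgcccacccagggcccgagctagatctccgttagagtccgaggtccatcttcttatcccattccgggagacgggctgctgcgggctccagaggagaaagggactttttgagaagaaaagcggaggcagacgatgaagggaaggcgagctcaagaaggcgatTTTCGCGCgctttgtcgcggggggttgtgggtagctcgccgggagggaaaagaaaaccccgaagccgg
Of the 32851 promoters 744 (2.26%) held at least 1 of these motifs. A match describes the sequence and is no evidence of binding. Promoters were found for 9 of the 10 members, 11 in all. The MEIS motif TGACAG, present in 19.2% of all promoters on either strand, occurred in 1 promoter of Cdkn2c and in no other of these.

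Rb1 was found in 2 of the 42 cells from E9.5 (4 and 2 counts), 1 of the 29 from E12.5 (2 counts) and 4 of the 41 from P1 (12.7, 22.4, 27.9 and 85.3 CPM, 30 counts in all). The mean was 0.143, 0.222 and 3.62 CPM. In pooled counts P1 was 111-fold higher than E12.5, with a counting interval of 28.2 to 959.9, and cell 33 of P1 held 57.5% of the summed CPM. At P1 Rb1 was found in fewer than 10% of cells and the level stayed under 5 CPM, so it was not called. This rests on the minimum of genes. In the 18 P1 cells with at least 3000 genes it was found in 3 (16.7%) at a mean of 7.53 CPM, and it was called higher than at E12.5 (log2 ratio 4.93) and at E9.5 (5.54), with 19.2% and 18.2% of all genes called higher at that minimum. On GRCm38 Rb1 (chromosome 14, 73183673 to 73325822, minus strand) shares 14.9% of its exonic bases with Rcbtb2 and Lpar6 on the opposite strand, and the library kit does not keep strand.

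Rbl2 (chromosome 8, 91070057 to 91123844, plus strand), which encodes p130, the pocket protein of resting cells, was found in 3 of the 42 cells from E9.5, 6 of the 29 from E12.5 and 3 of the 41 from P1, with means of 1.32, 4.06 and 9.70 CPM. The P1 mean rested on cells of 150.5 and 230.4 CPM, above the highest cell at E12.5 (78.3 CPM) and at E9.5 (33.7 CPM), with the remaining P1 cell at 16.9 CPM. As a share of cells this was 7.14%, 20.7% and 7.32% in order of age. With the minimum of 3000 genes it was found in 2 of 18 P1 cells (11.1%) and was called higher at P1 than at E12.5 (log2 ratio 1.60) and at E9.5 (3.20), a call that rests on these 2 cells. Its exons overlap those of Aktip on the opposite strand over 9.17% of their bases.

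Set per transcript length, in the TPM deposited by the authors, the makeup of the pocket proteins in the kept cells differed between the embryo and P1. Rbl1 gave 93.3% of their summed mean TPM at E9.5, compared with 80.8% at E12.5 and 1.098% at P1. Rbl2 gave 5.97%, 18.2% and 69.1%, and Rb1 0.685%, 1.04% and 29.8%. The sum itself was 9.98 TPM in E9.5 cells, 8.28 in E12.5 cells and 4.57 in P1 cells. The P1 values rest on the minimum of 2000 genes. With all 52 P1 cells, an alternative chosen after seeing the data, Rbl1 gave 48.4%, Rbl2 34.8% and Rb1 16.8% of a sum of 7.15 TPM, so Rbl1 led there too. At least 1 pocket protein was found in 15 of 42, 12 of 29 and 8 of 41 cells. Since these shares rest on few cells, they describe the libraries and not each cell. The 4 inhibitors summed to 192 TPM at E9.5, compared with 280 at E12.5 and 97.3 at P1, far above the pocket proteins. Cdkn1b and Cdkn2d together held nearly all of it at the embryonic stages (44.8% and 48.4% at E9.5, 39.2% and 57.6% at E12.5), and at P1 Cdkn1a held 33.4%, Cdkn1b 37.9% and Cdkn2d 23.6%. With all 52 P1 cells these were 23.9%, 40.3% and 32.8% of a sum of 127 TPM. The naming sets differed in both sum and makeup. Set C of E9.5 had an inhibitor sum of 216 TPM, set N530 one of 179, set C of E12.5 one of 357 and set N523 one of 86.1, so set N523 lay below both E9.5 sets and below P1. Cdkn1b led in set C of E9.5 (71.02% against 27.04% for Cdkn2d) and in set N523 (76.1% against 23.8%), and Cdkn2d led in set N530 (61.2% against 28.97%) and in set C of E12.5 (63.3% against 33.2%).

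**Figure D3:**
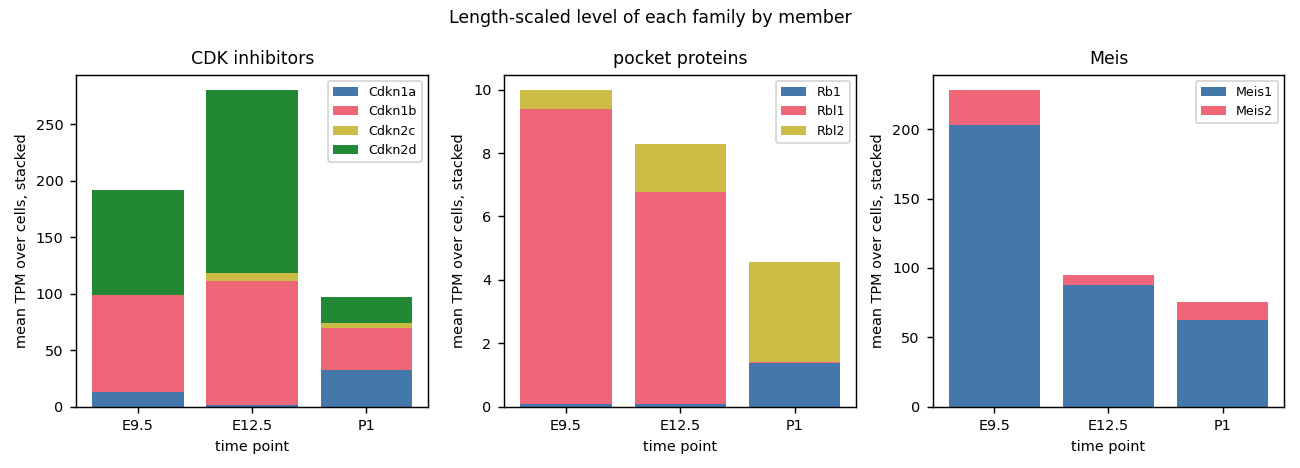
Mean TPM over cells (y axis), stacked by member, for the CDK inhibitors, the pocket proteins and the Meis genes at each time point (x axis), over cells with at least 2000 genes. Rbl1 fills most of the pocket protein bars at E9.5 and E12.5, and Rbl2 with Rb1 that at P1, where Rbl1 reached 48.4% once the cells with fewer genes were admitted, and Cdkn1a takes a visible part of the inhibitor bar only at E9.5 and P1.

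Trp53 had a mean of 331 TPM at E9.5 and 417 at E12.5, the highest of the members over all cells of each stage, and was lower at P1 (26.6 TPM), in level and in share of cells. In set C of E9.5 alone Meis1 was higher (222 against 209 TPM). The gene (chromosome 11, 69580359 to 69591873, plus strand) encodes p53, a transcription factor that halts the cycle under stress. It was found in 28 of the 42 cells from E9.5 (66.7%, exact 95% interval 50.5 to 80.4), 22 of the 29 from E12.5 (75.9%, 56.5 to 89.7) and 7 of the 41 from P1 (17.1%, 7.15 to 32.1), and after thinning in 24 of 42, 19 of 29 and 7 of 38. The share was thus lowest at P1, as sequenced and thinned. CPM ran from 0 through a median of 13.3 to 1906 at E9.5, from 0 through 50.6 to 5303 at E12.5, and from 0 through 0 to 621 at P1. The 7 P1 cells with Trp53 (11.8 to 621 CPM) lay within the embryonic range.

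The mean of Trp53 was 261 CPM in E9.5 cells, 470 in E12.5 cells and 31.3 in P1 cells. P1 was 15.01-fold lower than E12.5 (log2 ratio -3.91, -2.98 against set C and -5.12 against set N523) and 8.34-fold lower than E9.5 (log2 ratio -3.06, -2.54 and -3.26 by set). Both calls were kept under all 14 alternatives, which for no other called member held in every comparison. Between the embryonic stages the sets did not agree in direction (log2 ratio 0.85, from -0.28 to 2.58), but under TMM scaling Trp53 was called higher at E12.5 (log2 ratio 1.28). The E12.5 mean was raised by set N523, whose 8 cells split widely: 3 cells were at 1407, 1941 and 5303 CPM, and the other 5 between 2.04 and 16.9 CPM. Cell 24 alone gave 38.9% of the E12.5 sum, and without it the mean was 297 CPM. At P1 cell 48 gave 48.4% of the sum, and without it the mean was 16.5 CPM. With the cell of the highest CPM left out of each time point the log2 ratio of P1 was -4.17 to E12.5 and -3.74 to E9.5. Set C at E12.5 had a mean of 247 CPM, and sets C and N530 at E9.5 had means of 182 and 300.5 CPM.

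Cdkn1a and Trp53 were close to uncorrelated over cells. At P1 2 of the 10 thinned cells with Cdkn1a also had Trp53, with Spearman rho -0.04 and Pearson r -0.14 over 38 cells, and at E9.5 4 of 5 cells had both, with rho 0.02 and r -0.14 over 42 cells. Of the p53 regulators, Mdm2, the ligase that degrades p53, was at 59.1 CPM in E9.5 cells, 109 in E12.5 cells and 8.72 in P1 cells, and was called lower at P1 in both comparisons. Its homologue Mdm4 was lower at E12.5 than at E9.5 (80.2 to 20.2 CPM) and higher at P1 than at E12.5 (42.02 CPM). Of 20 p53 target genes listed, 19 are in the table. From E9.5 to E12.5 12 had sufficient level, 2 were called higher (Rrm2b and Btg2) and 3 lower (Trp53inp1, Zmat3 and Bax), with 9.31% of all genes higher and 18.6% lower. From E12.5 to P1 4 of 10 were higher, led by Perp (129 to 445 CPM), Zmat3 (4.30 to 11.9) and Rrm2b (19.7 to 53.1), and 3 lower, Btg2 (831 to 64.4), Aen (44.9 to 10.1) and Plk2 (157 to 60.1), with 15.6% of all genes higher and 25.3% lower. From E9.5 to P1 3 of 11 were higher (Rrm2b, Perp and Sesn1) and 5 lower, led by Btg2 (385 to 64.4 CPM) and Bax (52.1 to 13.3 CPM), with Trp53inp1 at 29.2 CPM at E9.5 and at 0 counts at P1. Pmaip1 and Eda2r had 0 counts at E12.5, and Pmaip1 and Bbc3 had 0 at P1. For E9.5 to P1 15.8% of all genes were higher and 38.1% lower. The list held genes in both directions in each comparison, and the shares lower lay near those of all genes. The shares higher, 2 of 12, 4 of 10 and 3 of 11, lay above the 9.31%, 15.6% and 15.8% of all genes. They rest on few genes, and the difference was not tested.

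Meis1 and Meis2 encode homeodomain proteins that bind DNA with Pbx partners, and both had their highest mean at E9.5. Meis1 (chromosome 11, 18879817 to 19018985, minus strand) was found in 35 of the 42 cells from E9.5 (83.3%, exact 95% interval 68.6 to 93.0), 17 of the 29 from E12.5 (58.6%, 38.9 to 76.5) and 21 of the 41 from P1 (51.2%, 35.1 to 67.1), and after thinning in 34 of 42, 14 of 29 and 19 of 38. CPM ran from 0 through a median of 128 to 4058 at E9.5, from 0 through 1.19 to 670 at E12.5, and from 0 through 7.87 to 671 at P1. The median cell at E9.5 stood above those of the later time points, and the ranges overlapped.

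The mean of Meis1 was 318 CPM in E9.5 cells, 159 in E12.5 cells and 125 in P1 cells. P1 was 2.56-fold lower than E9.5 (log2 ratio -1.35, -1.60 against set C and -1.21 against set N530), a call lost only at 4-fold. From E12.5 to P1 Meis1 was not called, and the sets disagreed in direction (log2 ratio -0.35, -0.70 against set C and 2.46 against set N523). The call from E9.5 to E12.5 sat at the threshold (2.00-fold, log2 ratio from -4.06 to -0.51 over the set combinations) and was lost under 6 of 14 alternatives: TMM scaling, thinning, set C alone, the cell with the highest CPM left out (at E9.5 cell 15 of set N530, 30.3% of the sum), cells with cardiomyocyte markers only, and 4-fold. The 3 E9.5 cells without cardiomyocyte markers had Meis1 at 62.04 to 1013 CPM. Set N523 stood apart at E12.5, with a mean of 22.7 CPM and 1 cell above 100 CPM, where set C had a mean of 203 CPM. Set N523 was also the deepest, and the part of depth in this was not tested.

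Meis2 (chromosome 2, 115863064 to 116065839, minus strand) was found in 23 of the 42 cells from E9.5 (54.8%, 38.7 to 70.2), 9 of the 29 from E12.5 (31.0%, 15.3 to 50.8) and 17 of the 41 from P1 (41.5%, 26.3 to 57.9), and after thinning in 15 of 42, 7 of 29 and 15 of 38. In the deep set N530 thinning lowered the count from 16 to 8 of 28 cells. Its highest cell was at 692 CPM in E9.5 cells, 177 in E12.5 cells and 403 in P1 cells. The order of the means, 58.5 CPM in E9.5 cells, 20.4 in E12.5 cells and 41.3 in P1 cells, put the lowest level at E12.5. E12.5 was 2.87-fold lower than E9.5 (log2 ratio -1.52, from -3.20 to -1.01), a call kept under 12 of 14 alternatives. P1 was 2.03-fold higher than E12.5, a call lost under 8 of 14, so this step lay at the threshold. The 3 E9.5 cells without cardiomyocyte markers had Meis2 at 11.7 to 525 CPM, and the E9.5 to E12.5 call was kept without them.

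Per transcript length Meis1 exceeded Meis2 at each time point, with 203 against 25.0 mean TPM at E9.5, 87.9 against 7.05 at E12.5 and 62.6 against 13.0 at P1. Of 9 Meis relatives and partners, 5 of the 8 with sufficient level were called lower from E9.5 to E12.5, the largest differences being in Pknox2 (11.6 to 0.105 CPM), Tgif2 (40.98 to 2.43) and Pknox1 (14.1 to 1.93), and 0 higher, where 18.6% of all genes were lower. From E12.5 to P1 3 had sufficient level and 0 were called in either direction, where 25.3% of all genes were lower and 15.6% higher. From E9.5 to P1 3 of 8 were called lower, near the 38.1% of all genes, and 0 higher: Tgif2 (0.237 CPM at P1), Meis3 (15.2 CPM at E9.5 and 0 counts at P1) and Pknox1 (0 counts at P1). Pbx4 was at 0 at all 3 time points, and Pknox2 at P1.

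**Figure D4:**
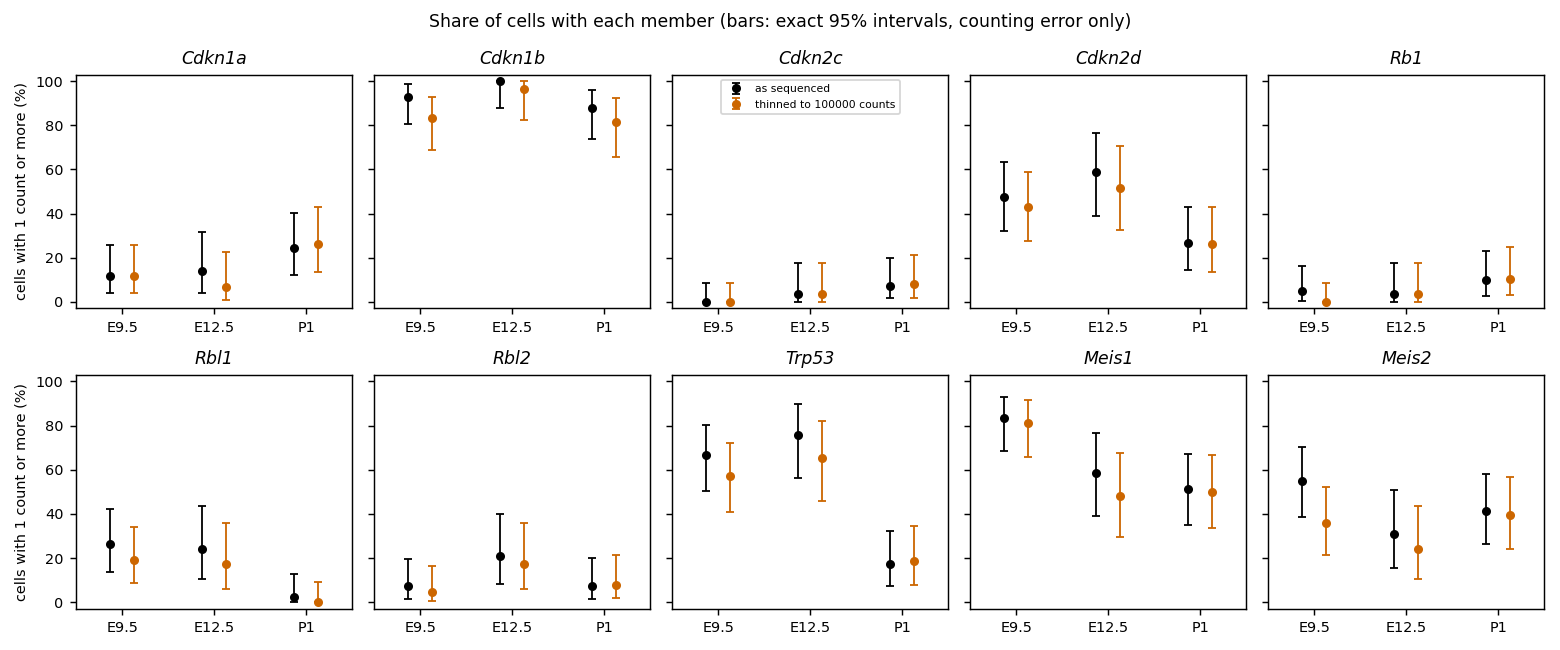
Share of cells with at least 1 count of each member (y axis, percent) at each time point (x axis), as sequenced (black) and after thinning to 100000 counts (orange), with exact 95% intervals. In this draw thinning lowers the share of Meis2 at E9.5 from 54.8% to 35.7% (35.7% to 47.6% over 20 other draws), and at P1 Rbl1 and Trp53 remain below their embryonic shares.

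The other genes of the pathway were read by the same rule as the members. Among 4 other inhibitors, Cdkn1c, the p57 member of the CIP/KIP family, was at 1039 CPM in E9.5 cells and 738 in E12.5 cells, found in 97.6% and 93.1% of them, and at 21.4 CPM in P1 cells, found in 7.32%. It was called lower at P1 in both comparisons, 34.5-fold against E12.5 and 48.6-fold against E9.5. Cdkn3, a phosphatase of cyclin-dependent kinases, was called higher at E12.5 than at E9.5 (17.3 to 64.4 CPM) and was at 7.35 CPM at P1. Cdkn2a was at 0 counts in all kept cells, and Cdkn2b at 0 counts at P1.

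The kinases and cyclins that the members act on were lower at P1. Of 8 G1 cyclins and kinases, 7 had sufficient level, and all 7 were called lower from E12.5 to P1 and from E9.5 to P1, with 0 higher, against 25.3% and 38.1% of all genes lower. In order of age, Ccnd1 was at 100.1, 99.1 and 6.18 CPM, Ccne1 at 40.9, 10.7 and 1.34, and Ccne2 at 35.1, 20.3 and 0. All 6 S and M phase genes were called lower in both comparisons with P1. Mki67 was at 317, 126 and 1.67 CPM and Top2a at 502, 374 and 17.9 CPM, and Ccnb1 at 370, 180 and 0.116 CPM, the last from 1 count. Of 15 E2F target genes, 14 were called lower from E12.5 to P1 and 14 from E9.5 to P1, with 0 higher, and 5 were already lower at E12.5 than at E9.5, where 18.6% of all genes were (largest for Cdc6, 43.4 to 5.79 CPM, Pola1, 43.6 to 6.93, and Cdt1, 58.4 to 15.5). Mcm4 and Mcm5 had 1 count each at P1, from 133 and 45.1 CPM at E12.5.

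The E2F and DP factors did not move as a block. From E9.5 to E12.5 2 of 8 were called lower (E2f4, 96.2 to 2.99 CPM, and E2f3, 31.5 to 9.73) and 2 higher (E2f8, 13.2 to 68.7 CPM, and E2f6, 21.7 to 77.3), against 18.6% and 9.31% of all genes. From E12.5 to P1 2 of 7 were lower (E2f8, to 0.702 CPM, and E2f3, to 2.65), near the 25.3% of all genes, and 0 higher. From E9.5 to P1, where 38.1% of all genes were lower and 15.8% higher, 4 of 7 were lower, with E2f7 at 10.3 CPM and then 0, and 2 higher, E2f6 (75.1 CPM at P1) and Tfdp2 (23.7 to 60.7 CPM). E2f1 and E2f2, along with the mitotic factor Foxm1, had 0 counts at P1. Of 8 MuvB genes, whose complex joins Rbl2 or Rbl1 to repress or B-Myb to activate cell cycle genes, Lin9 was higher at E12.5 than at E9.5 (17.3 to 78.9 CPM) and lower at P1 than at E12.5 (10.6 CPM), Lin37 was higher at P1 than at E12.5 (7.13 to 15.2 CPM), Lin52 higher at P1 than at E9.5 (12.4 to 37.9 CPM), and Mybl2 (19.4 CPM at E9.5) and Rbbp4 (350 to 175 CPM) lower at P1 than at E9.5, Mybl2 being at 0 counts at P1. Of the 5 genes for p27 turnover, Skp2, which marks p27 for degradation, was at 87.6, 16.8 and 9.25 CPM and was called lower from E9.5 to E12.5 and from E9.5 to P1. Its cofactor Cks1b was at 277, 389 and 13.7 CPM and was called lower in both comparisons with P1.

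The members were then set against Mki67 and Top2a, markers of dividing cells, over the 71 embryonic cells after thinning. These correlations are descriptions over cells that share libraries and naming sets, and no p-value is given. For scale, Mki67 and Top2a had Spearman rho 0.51 with each other at E9.5 and 0.61 at E12.5. Over all 71 cells Rbl1 had rho 0.26 and Pearson r 0.32 with Top2a, above 97.0% of 8298 genes, of which 5% lay above 0.22. Within stages and sets it ranked lower. At E9.5 alone rho was 0.22, above 94.6% of 8296 genes and just outside the 0.10 to 0.21 that 20 other draws of the thinning gave. At E12.5 it was 0.25, above 83.8% of 8509 genes. In single naming sets it lay above 62.3% (set N523) to 93.5% (set C of E9.5) of genes. Of the 13 thinned cells with Rbl1, 11 also had Top2a, 8 of 8 at E9.5 and 3 of 5 at E12.5, while Top2a was found in 43 of the 71 cells. Rbl1 was positive with both markers in each of the 4 embryonic naming sets (rho 0.07 to 0.50), and the numbers of cells with it were small.

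Cdkn1b pointed in different directions at the 2 embryonic stages. At E9.5 its rho with Mki67 was -0.36 (r -0.33, 42 cells) and at E12.5 0.45 (r 0.47, 29 cells). With Top2a the values were -0.24 (r -0.18) and 0.37 (r 0.42). At E9.5 set C had more Cdkn1b than set N530 and, after thinning, fewer cells with Mki67 (4 of 14 against 20 of 28 in set N530) and Top2a (6 of 14 against 24 of 28), and the part of this in the negative values was not tested. Within set C rho was 0.17 with Mki67 and 0.26 with Top2a, and within set N530 -0.29 and -0.14. At E12.5 the 20 cells of set C gave 0.64 and 0.27 and the 8 cells of set N523 -0.01 and 0.77. Over 20 other draws of the thinning, rho with Mki67 stayed between -0.42 and -0.19 at E9.5 and between 0.30 and 0.52 at E12.5. With Top2a it lay between -0.230 and -0.07 at E9.5, so the reported -0.235 lay just outside. At E12.5 it lay between 0.11 and 0.37, with the reported value at the upper end. Cdkn1b stood above 1.34% of 8296 genes with Mki67 and 17.8% with Top2a at E9.5. At E12.5 it stood above 96.9% and 93.5% of 8509 genes. Cdkn2d had rho 0.05 and 0.40 with Mki67 and -0.16 and 0.43 with Top2a at E9.5 and E12.5 (r 0.03, 0.52, -0.11 and 0.40). Over the 20 other draws its E9.5 values crossed 0 (-0.13 to 0.10 with Mki67 and -0.21 to 0.08 with Top2a). Its E12.5 values ran from 0.40 to 0.58 and from 0.35 to 0.55. At E12.5 10 of its 15 thinned cells also had Top2a, against 13 of 29 cells in all, and set C gave 0.54 and 0.51, set N523 -0.33 and 0.28.

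Trp53 had rho 0.21 with Mki67 and 0.15 with Top2a at E9.5 (r 0.24 and 0.17) and 0.14 and -0.15 at E12.5 (r -0.07 and -0.14). The E12.5 value with Mki67, 0.135, lay just above the -0.02 to 0.126 of 20 other draws. At E9.5 set C gave 0.32 and 0.47 with the 2 markers, and set N530 0.26 and 0.12. With Top2a at E12.5, set C gave rho 0.11 over 20 cells and set N523 -0.69 over 8 cells. In set N523 the 3 cells with 1407 to 5303 CPM of Trp53 had Top2a at 0, 4.94 and 0 CPM, and the cell with the highest Top2a (1433 CPM) had Trp53 at 2.42 CPM. Meis1 and Meis2 were between -0.13 and 0.14 with both markers at both stages in this draw of the thinning. Over 20 other draws Meis1 ran from -0.09 to 0.06 with Mki67 at E9.5, so the -0.12 of this draw lay outside them. Meis2 ran from 0.12 to 0.33 with Mki67 at E12.5 and from 0.07 to 0.29 at E9.5. Single sets spread more widely. With Mki67 and Top2a Meis1 gave 0.36 and 0.18 in set C of E9.5 and -0.21 and -0.17 in set N530. Meis2 gave 0.29 and 0.39 in that set C and 0.26 and 0.15 in set N530. In the 8 cells of set N523 Meis1, found in 2 of them, gave 0.50 with Mki67 and 0.58 with Top2a. Rbl2, in 5 of the 29 thinned cells of E12.5, had rho -0.08 with Mki67 (r -0.07) and 0.32 with Top2a (r 0.08), and Cdkn1a, in 5 of the 42 of E9.5, had -0.14 (r -0.06) and -0.07 (r 0.08). The 20 other draws crossed 0 for both genes with both markers. Rbl2 ran from -0.17 to 0.21 and from -0.03 to 0.37, and Cdkn1a from -0.19 to 0.02 and from -0.10 to 0.09. At the other stage each was in 2 cells, and Rb1 and Cdkn2c were in at most 1 cell at either stage, so these values were not read.

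**Figure D5:**
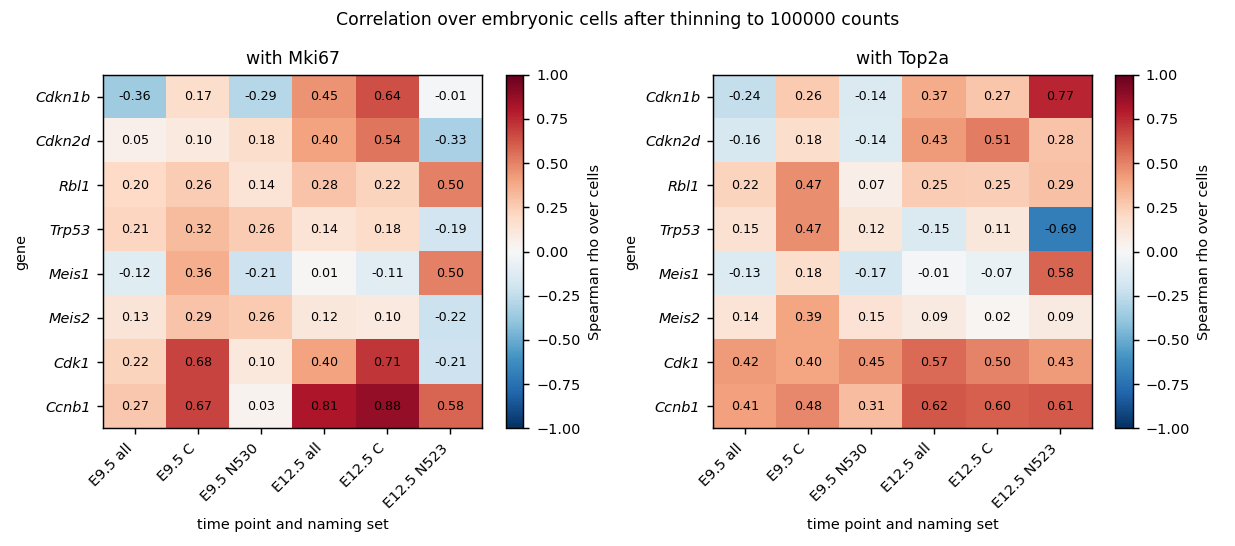
Spearman rho over cells (colour and number) of 6 members and, for scale, Cdk1 and Ccnb1 (y axis) with Mki67 (left) and Top2a (right), by embryonic time point and naming set (x axis), after thinning to 100000 counts. Over all cells Cdkn1b is negative at E9.5 and positive at E12.5. By set it is positive in set C of E9.5 (0.17 and 0.26) and at -0.01 with Mki67 in set N523. Rbl1 is above 0 in every column, and set N523, with 8 cells, gives -0.69 for Trp53 and 0.77 for Cdkn1b with Top2a.

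The genes most alike to each member were ranked by rho over the 71 embryonic cells after thinning, among 8298 genes found in at least 10% of them. For Cdkn1b they were Cbx3 (0.52), Hmgb1 (0.52) and Smek1 (0.51), and for Cdkn2d Pttg1 (0.50), Ccdc58 (0.48) and Gapdh (0.47). For Rbl1 they were Dpp9 (0.52), Cntrob (0.46) and Ccdc99 (0.44), and for Trp53 1810037I17Rik (0.45), Zdhhc12 (0.42) and Rrm2 (0.41). For Meis1 they were Lims1 (0.51), Pnn (0.47) and Prdx4 (0.45), and for Meis2 Snhg12 (0.52), Pus1 (0.52) and Ankrd32 (0.50). All 18 values were positive within E9.5 and within E12.5 as well. These are the highest of many values and were not tested. Cdkn1a, Cdkn2c, Rb1 and Rbl2 were found in under 10% of these cells and were not ranked.

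Few cells lacked the members altogether. The median cell had 4 of the 10 at E9.5 (0 to 6) and at E12.5 (2 to 7) and 3 at P1 (0 to 6), and 3 at each time point after thinning. Among pairs of members found in at least 5 thinned cells each, rho ran from -0.27 (r -0.24, Rbl2 and Meis1 over 29 cells of E12.5) to 0.37 (r 0.26, Cdkn1b and Meis1 over the same cells). The inhibitors Cdkn1b and Cdkn2d had rho 0.28 (r 0.17) at E9.5, 0.31 (r 0.30) at E12.5 and 0.09 (r 0.11) over 38 cells of P1. In summed mean TPM the 10 members came to 760.5 at E9.5, compared with 801 at E12.5 and 204 at P1. Trp53 held 43.5%, 52.1% and 13.0% of these sums, and Meis1 26.7%, 11.0% and 30.7%.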

How the data were processed

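Each library came from 1 cell taken on a Fluidigm C1 chip, with cDNA from SMART-Seq V4 and Nextera XT tagging. Reads were aligned by the authors with OLego and assigned to gene symbols by featureCounts (builds in the submitters' processing notes: GRCm38, mm10). The authors deposited raw counts of reads for each cell. The authors also deposited TPM computed from these counts, on a linear scale. Gene lengths behind the TPM are not given in the sources used here. Cell groups came from the labels. CPM, shares with exact (Clopper-Pearson) 95% intervals, thinning without replacement to 100000 counts (seed 1), ratios of mean CPM and correlations of ln(counts per 10000 + 1) were computed in Python 3.11.15 with numpy 2.4.6, pandas 2.3.3 and scipy 1.17.1, and TMM factors with edgeR 4.0.16 in R 4.3.3. Total counts of the kept cells ran from 69522 to 7711355. With 1 sample per time point no test was possible, so differences carry no p-value and the spread between naming sets stands in for error. For a gene with no count in a group, the limit is 3 counts. Gene positions came from GENCODE (GRCm38) and promoters from RefSeq (GRCm38.p6). No deposited cell type annotation was used and no doublet caller was run. Alternatives were other levels (pooled CPM, TPM, median), TMM scaling, thinning, minimums of 1000 and 3000 genes, single naming sets, cell subsets, no minimum level and a 4-fold ratio. The computation was tested on simulated data. Named genes are the members, Mki67 and Top2a, up to 3 called genes with the largest ratios per pathway list, direction and comparison with those at 0, and the 3 genes most alike to each member, with Cdk1 added for scale. The members and lists were chosen with earlier results of these data known. The result of 1 further marker list is not reported here.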

Additional observations from a re-analysis of the deposited data

Results flagged for a closer look

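The 11 P1 cells with fewer than 2000 genes, which entered no comparison, held reads of 5 members above the limit of 3 counts. The summed counts were 21 for Cdkn1a in 1 cell, 15 for Cdkn1b in 5 cells, 63 for Cdkn2d in 2 cells, 12 for Rbl1 in 2 cells and 26 for Meis1 in 3 cells. In pooled CPM these were 29.4, 21.0, 88.1, 16.8 and 36.4. Rbl1 had 1 count in all 41 kept P1 cells together, so most of its P1 reads came from cells below the minimum. These cells had 4903 to 149120 counts in all. With them the log2 ratio of Rbl1 was -1.10 for P1 to E12.5, in place of -6.83.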

How the results depend on the processing

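Of the 84 counts of called members under the 14 alternatives, 60 stayed within 1.5 times of the reported count. From E9.5 to E12.5, 1 member was lower on the median over cells (12.6% of all genes lower), after thinning (17.6%), with the highest cell left out (21.2%) and at 4-fold (11.1%). After thinning 1 was higher (Rbl2), with 9.99% of all genes higher. In set C alone 1 was lower and 2 higher (Cdkn2d and Rbl2), where 23.1% of all genes were higher and 26.5% lower. In sets N530 and N523 alone 5 were lower (Cdkn1a, Cdkn2d, Rbl1, Meis1 and Meis2) and 1 higher (Trp53), where 45.9% of all genes were lower and 23.7% higher. Cdkn2d was thus called in opposite directions by the 2 choices of sets. Under TMM scaling 1 was higher (Trp53), where 15.6% of all genes were. From E12.5 to P1, 1 member was higher with TPM (13.1% of all genes higher), TMM scaling (11.7%), 1000 genes (14.8%) and set C alone (17.2%). The same held with titles ending in "no" left out (19.3%) and at 4-fold (6.99%), and 0 were higher on the median over cells (18.6%). In sets N530 and N523 alone Cdkn1a, Meis1 and Meis2 were higher, where 33% of all genes were. In set C alone Cdkn1b, Cdkn2d, Rbl1 and Trp53 were lower, where 36.1% of all genes were. From E9.5 to P1, 0 were higher with pooled CPM (15.6% of all genes higher), on the median over cells (25.8%), in sets N530 and N523 alone (19.9%) and at 4-fold (7.29%). With 3000 genes 4 were higher (Cdkn1a, Cdkn2c, Rb1 and Rbl2), where 18.2% of all genes were higher. That minimum gave 3 higher from E12.5 to P1 (Cdkn1a, Rb1 and Rbl2), where 19.2% of all genes were higher. On the median and at 4-fold 2 were lower from E9.5 to P1, where 40.8% and 23.9% of all genes were lower. The cause was not tested for any of these. No member called with all cells was called in the opposite direction under an alternative. No paired analysis was possible because the labels give cells and no replicate of a time point. The 71 embryonic cells of very unequal depth limit the shares, and at P1 1 count in a median cell is worth more than in the deep sets.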
